A study of Bos taurus with 24 samples.

Results

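Genomic imprinting is the silencing of a gene on the chromosome inherited from 1 parent, so that transcription comes mainly from the other parental copy. Many imprinted genes govern growth, and the DNA methylation that marks 1 of the parental copies is set in the germ line and then kept in somatic cells. PEG3, PEG10, MEST, PLAGL1 and NNAT are known as genes read from the paternal copy, and IGF2R and, in many tissues, GRB10 from the maternal copy. Counts per gene do not separate the parental copies, so the values here are total RNA levels and say nothing on imprinting itself.

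These 7 imprinted genes were taken by name, with PEG3 as the lead, which was chosen by its measured level: it peaked in mural granulosa cells of early antral follicles. The peak of PEG3 is therefore a description, and no test was applied to any PEG3 comparison with that group. All 7 were found among the 27607 genes of the count table, and all 7 were among the 14298 genes with enough counts to be tested.

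RNA of cow granulosa cells, the somatic cells that surround and nourish the oocyte, was sequenced in 24 libraries. The study asked how far such cells can extend transzonal projections, the thin processes that reach the oocyte through its coat, and set this beside their transcriptomes. The 4 libraries called secondary_GC hold granulosa cells of the small follicles that have no fluid-filled cavity yet. Early antral follicles gave 5 libraries of cumulus cells, which lie against the oocyte (early_CC), and 5 of mural cells, which line the wall (early_MGC). Late antral follicles gave 5 libraries of each type as well (late_CC and late_MGC). The labels name no treatment, genotype, breed, age or donor, and all groups share a low-input cDNA method. Nothing says that replicates came from separate animals, so p-values measure only the spread between these samples, which may be technical.

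Total counts ran from 8379801 to 31762400 per library. Granulosa markers were found in every group, with all 11 listed markers above 0. Of 9 oocyte markers found, BMP15 and FIGLA were at 0 counts in all 5 groups while KIT was not, and the theca enzyme gene CYP17A1 was at 0 in 4 of them. The 3 libraries that correlated least with their own group were late_MGC 3 (mean r over log2 CPM of 0.861), late_CC 3 (0.905) and early_MGC 4 (0.906), and the library secondary_GC 2 followed at 0.910. The library labelled late_MGC 3 goes against its label: FSHR, the receptor for follicle-stimulating hormone, was at 10.6 CPM there (a library's counts scaled to a common total) and at 302 to 381 CPM in the other late_MGC libraries. Its summed level of 11 theca and stroma markers was 2698 CPM, against 270 to 434 CPM in the others, and LUM, a matrix protein of stroma, was at 1621 CPM. In late_CC 3, INHBA, an activin subunit, was at 191 CPM, against 4890 to 11330 CPM in the other late_CC libraries. Results on the members are given below with all libraries and, where these 3 libraries change the call or the direction, also without them. For the gene lists and for changes in size, values without them are given in part.

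PEG3 encodes a large zinc finger protein that binds DNA and has been tied to growth, maternal behaviour and cell death. The gene lies on cow chromosome 18 at 64099930 to 64118980 on the minus strand of the ARS-UCD1.2 genome (ENSBTAG00000054572), with 10977 exon bases. The 5 early_MGC libraries held PEG3 at 94.5, 151, 98.6, 97.7 and 297 CPM. Each early_MGC library lay above every early_CC library, and library 5 stood well above the rest of its group. The early_CC libraries were close together, at 57.4, 67.3, 57.0, 66.5 and 71.1 CPM. The secondary_GC libraries were spread more widely, at 67.2, 43.5, 107 and 49.8 CPM, and their highest library overlapped the early_MGC range. Late antral libraries were low in both cell types. The late_CC libraries were at 13.2, 20.5, 11.7, 18.6 and 14.02 CPM, and the late_MGC libraries at 7.34, 20.2, 22.9, 11.8 and 8.30 CPM. No late library reached the level of any earlier one.

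In order of group mean, PEG3 was at 148 ± 86.8 CPM in early_MGC (SD, n = 5), 66.8 ± 28.4 in secondary_GC (n = 4), 63.9 ± 6.32 in early_CC (n = 5), 15.6 ± 3.77 in late_CC (n = 5) and 14.1 ± 7.06 in late_MGC (n = 5). The early_MGC mean was 2.32 times that of early_CC and 10.48 times that of late_MGC, and 2.51 and 13.5 times without the 3 libraries. Early_MGC 5, at 297 CPM, is not among these 3 and raises the early_MGC mean. Group medians were 98.6 CPM in early_MGC, 58.5 in secondary_GC, 66.5 in early_CC and 11.8 in late_MGC. Secondary_GC and early_CC did not differ beyond their spread, with a log2 fold change of -0.05 ± 0.30 (SE) and an adjusted p of 0.963. The step between early_CC and late_CC was tested, since it leaves out the group that chose the gene. PEG3 was 4.09-fold lower in late_CC, a log2 fold change of -2.03 ± 0.30 with an adjusted p of 8.7e-06 in edgeR's quasi-likelihood test, and all 5 late_CC libraries lay below all 5 early_CC libraries. Late_CC and late_MGC did not differ beyond their spread, at -0.03 ± 0.29 on the log2 scale with an adjusted p of 0.953. In bulk samples such as these, fewer cells that hold a transcript and less of it per cell cannot be told apart.

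**Figure D1:**
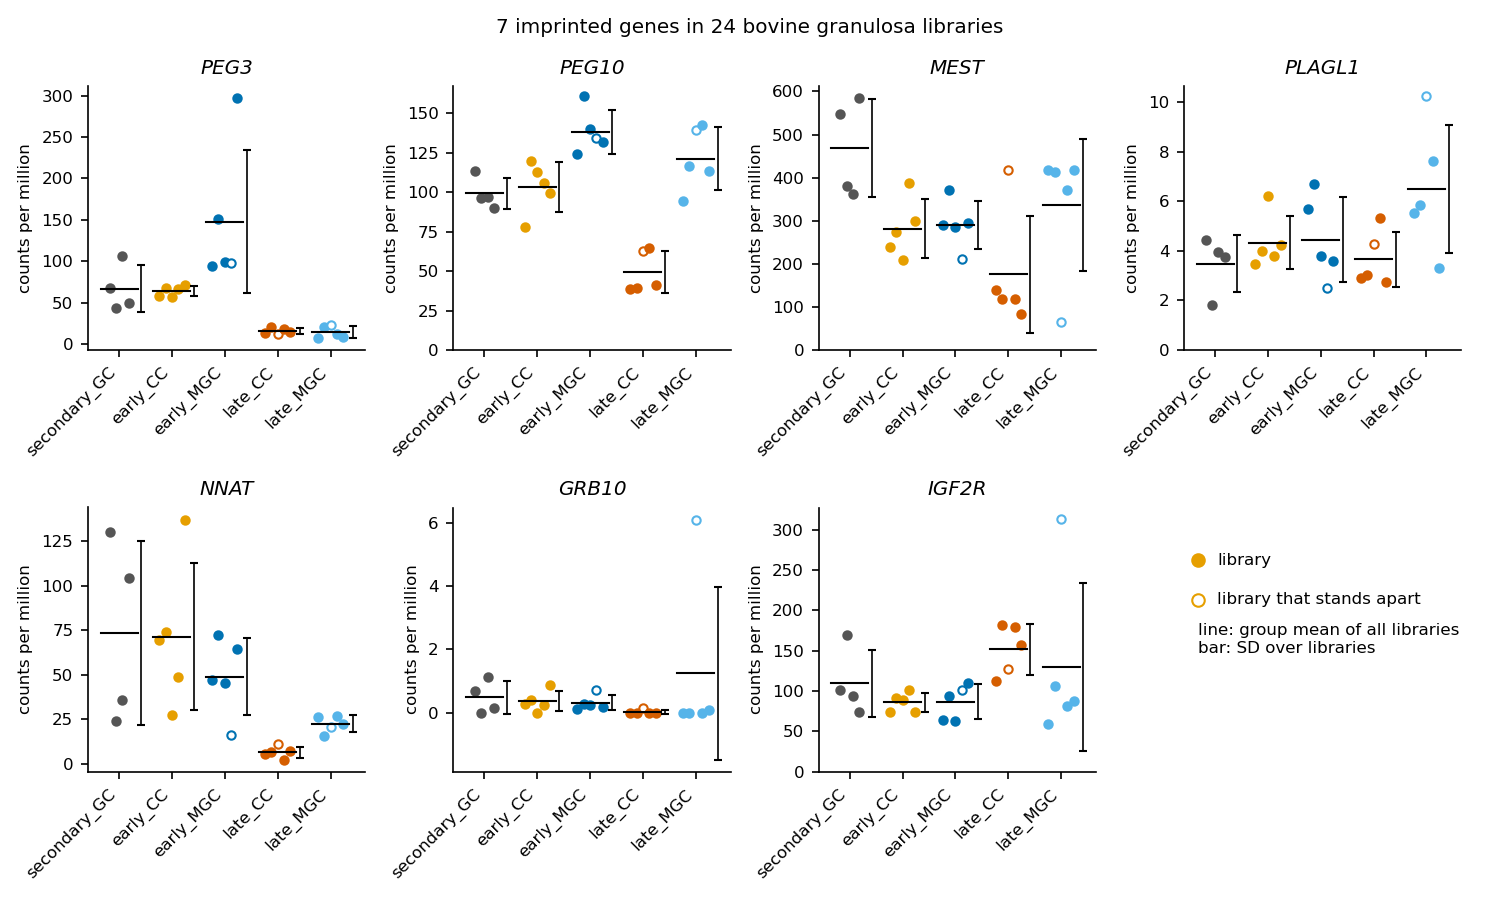
CPM of the 7 imprinted genes (y axes, linear) in each of the 24 libraries by group, with the group mean as a line and the SD as a bar. PEG3 is highest in early_MGC, between 94.5 and 297 CPM, and at most 22.9 CPM in every late antral library; open points mark late_MGC 3, late_CC 3 and early_MGC 4.

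PEG10, a gene that arose from a retrotransposon and encodes a Gag-like protein known from placenta, lies on chromosome 4 at 12063954 to 12076656 on the plus strand (ENSBTAG00000053735, 6506 exon bases). It was lowest in late cumulus cells. The late_CC libraries held 38.9, 39.5, 62.9, 64.5 and 41.1 CPM, and the late_MGC libraries 94.7, 117, 139, 142 and 113 CPM. The 2 groups did not overlap. The other ranges were 78.0 to 120 CPM in early_CC, 124 to 161 CPM in early_MGC and 90.2 to 113 CPM in secondary_GC. Every library outside late_CC therefore held more PEG10 than any late_CC library.

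PEG10 was 2.81-fold lower in late_CC than in late_MGC (log2 fold change -1.49 ± 0.17, adjusted p 2.58e-07) and 2.08-fold lower than in early_CC (-1.05 ± 0.17, adjusted p 2.08e-05). Among mural cells the stage difference was -0.11 ± 0.16 on the log2 scale, with an adjusted p of 0.699. The stage difference was itself different between the cell types, by -0.95 ± 0.23 on the log2 scale (adjusted p 0.00332 for the interaction). PEG10 was also 1.55-fold higher in early_MGC than in secondary_GC (0.63 ± 0.18, adjusted p 0.0269) and lower in early_CC than in early_MGC (-0.54 ± 0.17, adjusted p 0.0301). The first lost its call without secondary_GC 2, secondary_GC 4, early_MGC 2 or early_MGC 4 (adjusted p up to 0.0934), and the second without early_CC 1, early_CC 5, early_MGC 2, early_MGC 3 or early_MGC 4 (up to 0.0865).

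MEST encodes a protein with the fold of a hydrolase that lies in the endoplasmic reticulum membrane, and it marks growing mesodermal tissue. Its gene is on chromosome 4 at 94250156 to 94263796 on the plus strand (ENSBTAG00000017223, 2746 exon bases). Secondary_GC held 549, 380, 362 and 585 CPM. The late_CC libraries held 140, 118, 417, 119 and 83.1 CPM, with library 3 at about the level of late_MGC. The late_MGC libraries held 418, 412, 65.7, 371 and 418 CPM, with library 3 below every late_CC library. The 2 late groups thus overlapped only through these 2 libraries, each of which stands apart from its group across all genes. Early antral libraries lay between 208 and 387 CPM in early_CC and between 212 and 370 CPM in early_MGC.

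With all libraries, MEST was 2.20-fold lower in late_CC than in late_MGC (log2 fold change -1.14 ± 0.42, adjusted p 0.0337). That call was lost, at adjusted p up to 0.0863, without any 1 of 8 of the 10 late libraries; it was kept without late_CC 3 or late_MGC 3. Against early_CC, MEST in late_CC gave -0.63 ± 0.41 with an adjusted p of 0.22. Without late_CC 3 the same difference was -1.30 with an adjusted p of 0.00422. Without the 3 libraries, late_CC held 115 ± 23.7 CPM (n = 4), late_MGC 405 ± 22.9 CPM (n = 4) and early_MGC 310 ± 40.3 CPM (n = 4). In that fit MEST also rose from early_MGC to late_MGC (0.58, adjusted p 0.039) and the interaction was called (-1.88, adjusted p 2.13e-05), neither of which passed with all libraries (adjusted p 0.594 and 0.208). Against secondary_GC, MEST in early_CC gave -0.69 with an adjusted p of 0.46 over all libraries and 0.0232 without the 3. None of the 3 belongs to either of these groups, and the difference without them was again -0.69. With only these 2 groups in edgeR's quasi-likelihood fit it was -0.74, with an adjusted p of 0.0303.

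NNAT encodes neuronatin, a small proteolipid of the endoplasmic reticulum that is known to act on calcium handling. It lies on chromosome 13 at 66465154 to 66467543 on the plus strand (ENSBTAG00000003212, 1256 exon bases). The early_CC libraries held 69.6, 74.1, 27.1, 48.8 and 137 CPM. The late_CC libraries held 5.27, 6.34, 10.8, 2.30 and 6.97 CPM, all below the lowest library of any other group. The late_MGC libraries held 26.5, 15.5, 20.7, 26.98 and 22.5 CPM. Secondary_GC ran from 24.1 to 130 CPM and early_MGC from 16.1 to 72.3 CPM, so the earlier groups overlapped with one another.

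NNAT was 10.9-fold lower in late_CC than in early_CC (log2 fold change -3.44 ± 0.49, adjusted p 1.1e-05), the widest step of any member in a tested comparison other than that of the sparsely counted GRB10. It was also 4.04-fold lower than in late_MGC (-2.01 ± 0.47, adjusted p 0.00173). In mural cells the stage difference was -0.97 ± 0.45 and did not pass (adjusted p 0.141). The difference between the cell types in that step was called, at -2.47 ± 0.65 on the log2 scale with an adjusted p of 0.00574. The early_CC and early_MGC levels did not differ beyond their spread (0.46 ± 0.45, adjusted p 0.541).

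PLAGL1 encodes a zinc finger transcription factor known to slow cell growth and to regulate other imprinted genes. It lies on chromosome 9 at 81363245 to 81407582 on the minus strand (ENSBTAG00000026523, 3181 exon bases). Its level was low, between 1.80 and 10.2 CPM over all 24 libraries. The late_CC libraries held 2.92, 3.05, 4.29, 5.32 and 2.75 CPM, and the late_MGC libraries 5.53, 5.86, 10.2, 7.63 and 3.32 CPM. The ranges overlapped, since late_MGC 5 lay below late_CC 3 and late_CC 4. PLAGL1 was 2.02-fold lower in late_CC than in late_MGC (log2 fold change -1.02 ± 0.32, adjusted p 0.0124), and no other comparison of it passed.

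IGF2R encodes the receptor that carries enzymes tagged with mannose 6-phosphate to lysosomes and takes IGF2 from the cell surface for breakdown. It lies on chromosome 9 at 96197493 to 96300017 on the plus strand (ENSBTAG00000002402, 9058 exon bases). It was the single member that rose in late cumulus cells. The early_CC libraries held 74.3, 91.3, 89.3, 101 and 74.4 CPM, and the late_CC libraries 112, 182, 128, 179 and 157 CPM, with no overlap. The rise was 1.76-fold (log2 fold change 0.81 ± 0.30, adjusted p 0.0294), and it missed the threshold without early_CC 1, early_CC 5, late_CC 2 or late_CC 4, at adjusted p up to 0.0682. The late_MGC libraries held 59.5, 107, 313, 80.8 and 88.1 CPM. With late_MGC 3 the late groups did not differ beyond their spread (0.07 ± 0.30, adjusted p 0.874), and without it IGF2R was higher in late_CC (0.62, adjusted p 0.0261).

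GRB10 encodes an adaptor that binds the insulin and IGF1 receptors and dampens their signal. It lies on chromosome 4 at 5106065 to 5327013 on the plus strand (ENSBTAG00000017086, 4470 exon bases). It was barely detected, with 34 counts over the 4 secondary_GC libraries, 45 over early_CC, 20 over early_MGC and 2 over late_CC. Late_MGC had 116 counts, and late_MGC 3 alone stood at 6.11 CPM while the other 4 held at most 0.0949 CPM. GRB10 was called lower in late_CC than in late_MGC (adjusted p 0.0145), a call that ended without late_MGC 3 (adjusted p 0.951). No fold is given, since it would describe that library. Of the 5 late_CC libraries 4 had no GRB10 count, and the group mean lay under the 0.0361 CPM that 3 counts over the group would give.

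Counted by comparison over the 6 members other than PEG3, the largest counts came from the 2 comparisons of late_CC. Between late_CC and late_MGC, 5 of 6 were called, all lower in late_CC, beside 39.7% of all genes tested (18.9% higher, 20.8% lower). Among these 5 are the GRB10 call that rested on a single library and the MEST call that most single omissions ended. IGF2R was called too, and higher in late_CC, without the 3 libraries. Between late_CC and early_CC, 3 of 6 were called (PEG10 and NNAT lower, IGF2R higher), beside 45.2% of all genes (22.5% higher, 22.7% lower), which is close to the background. From early_MGC to late_MGC the count was 0 of 6 in edgeR, DESeq2 and limma-voom, with 2 of the 6 at an unadjusted p under 0.05 in edgeR, beside 19.1% of all genes called (9.76% higher, 9.3% lower). At the early stage, PEG10 alone was called between early_CC and early_MGC, beside 13.1% (6.7% higher, 6.39% lower), and between early_MGC and secondary_GC, beside 9.1% (5.01% higher, 4.08% lower). Between early_CC and secondary_GC the count was 0 in edgeR, DESeq2 and limma-voom, and also 0 at an unadjusted p under 0.05, beside 1.99% (0.944% higher, 1.05% lower). The shares of all genes beside secondary_GC moved with the libraries in the fit. For early_CC 285 genes were called with all libraries and 150 without secondary_GC 2. The count was 1304 without the 3 libraries and 964 with only these 2 groups in the fit. None of the 3 belongs to early_CC or secondary_GC, so they act here only through the fit that all libraries share. For the interaction of stage and cell type 2 of 6 were called, PEG10 and NNAT, beside 31.4% of all genes (14.5% higher, 16.9% lower). Without late_CC 3 it was 4 of 6, beside 4451 of 14247 genes. Each of these shares rests on only 6 genes. These comparisons share groups and are not independent of one another.

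**Figure D2:**
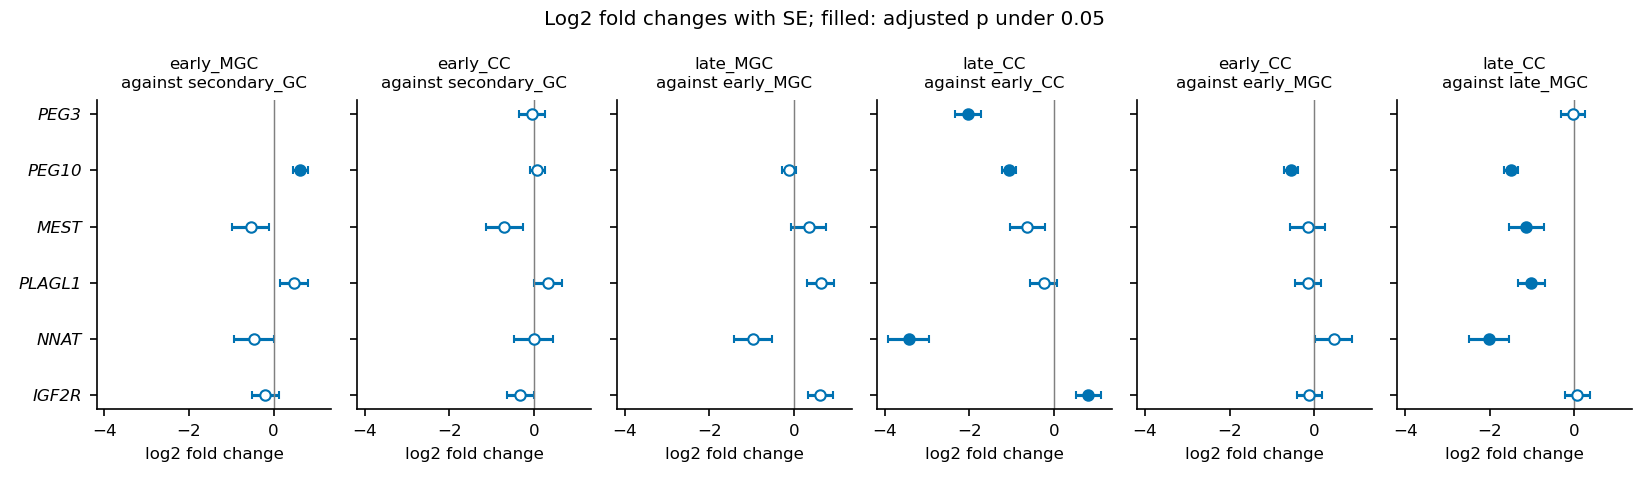
Log2 fold changes (x axes) with SE for 6 members in the 6 comparisons; filled points passed at adjusted p under 0.05, PEG3 is drawn only where it was tested, and GRB10 is left out. PEG10 and NNAT lie left of 0 in both comparisons of late_CC, at -1.05 and -3.44 against early_CC.

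Levels of different genes were compared per kilobase of exon. On that scale MEST was the most abundant member in all 5 groups, from 64.0 CPM per kb in late_CC to 171 in secondary_GC, and GRB10 the least, at most 0.278 CPM per kb. MEST in late_CC was at 41.99 CPM per kb when the 3 libraries were left out, and then GRB10 had its highest mean in secondary_GC, at 0.109 CPM per kb. NNAT took place 2 of 7 in the 3 earlier groups (38.9 to 58.6 CPM per kb), place 3 in late_MGC (17.9 CPM per kb) and place 4 in late_CC (5.04 CPM per kb). IGF2R was at place 4 or 5 in the earlier groups and at place 2 in late_CC, with 16.7 CPM per kb. PEG3, with its long transcript, was at 13.5 CPM per kb in early_MGC, place 4, and at 1.29 CPM per kb in late_MGC, below PLAGL1 with 2.05 CPM per kb. Some neighbours in this order overlap: in late_MGC, PEG10 at 18.6 ± 3.03 and NNAT at 17.9 ± 3.72 CPM per kb are not apart beyond their spread.

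**Figure D3:**
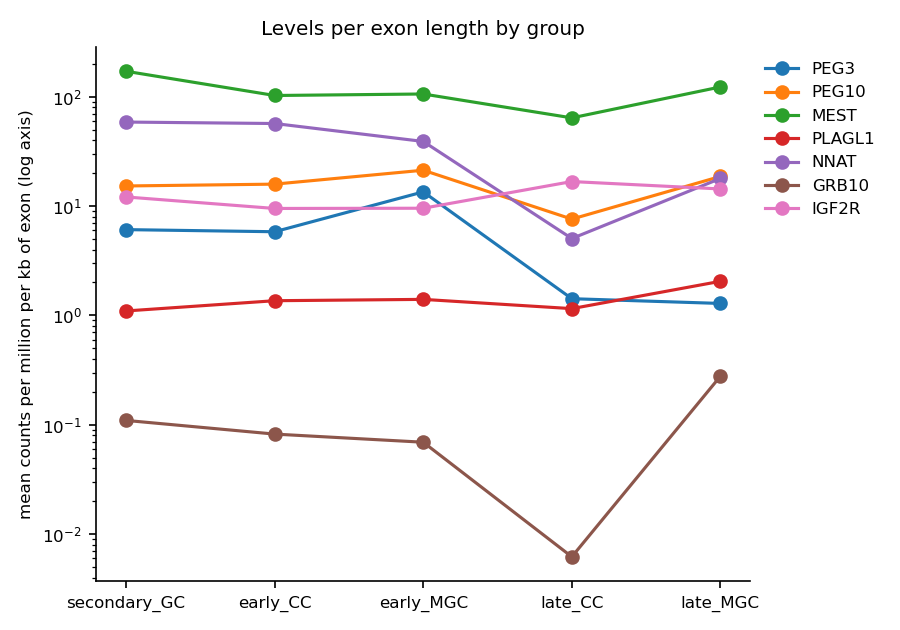
Mean level of each member per kilobase of exon (y axis, log scale) in the 5 groups (x axis). MEST is the uppermost line in every group, and PEG3 peaks in early_MGC at 13.5 CPM per kb.

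Correlations among the members ran in both directions. Over the 24 libraries, Pearson correlations of log2(CPM + 1) between PEG3 and the others were 0.628 for NNAT, 0.499 for PEG10, 0.210 for MEST, 0.198 for GRB10, -0.099 for PLAGL1 and -0.247 for IGF2R. For GRB10 the value was 0.560 without the 3 libraries and Spearman's rho over all 24 was 0.644, and for MEST rho was -0.102. IGF2R ran against MEST (-0.664) and NNAT (-0.564). These are descriptions over libraries that share stage, cell type and depth. Without the 3 libraries PEG10 and MEST correlated at 0.756 over the remaining 21, against 0.449 over all 24.

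Of 8412 tested genes with a symbol and a mean of at least 5 CPM, those most like PEG3 over the 24 libraries were BEND6 (Pearson r 0.935), ARHGAP29 (0.923), GRHL3 (0.922), CLMP (0.919) and TMEM117 (0.917). Their r stayed between 0.912 and 0.921 without the 2 libraries farthest from the PEG3 median. For NNAT the nearest were CUEDC2 (0.933), LSM2 (0.927) and ALDH7A1 (0.921), and for IGF2R they were PSAP (0.907), PPP1R18 (0.897) and VSIG10 (0.891). PSAP encodes prosaposin, a precursor of lysosomal activator proteins. PEG10 was most like UACA (0.881), CPT1A (0.875) and NDUFAF2 (0.850), and MEST most like ACSS1 (0.843), PEMT (0.795) and SLC9B1 (0.771). PLAGL1 was nearest to DIMT1 (0.796), DTL (0.777) and SSB (0.777). The genes nearest to GRB10, CSRP3 (0.867), MAP4K1 (0.857) and CAST (0.849), fell to 0.560, 0.409 and 0.347 without the 3 libraries.

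Imprinted genes often lie in clusters, so for 4 members a listed neighbour on the chromosome, picked by name, was set beside each. SGCE, a sarcoglycan gene, lies 266 bases from PEG10 on the opposite strand. SGCE held 54.6 ± 10.8 CPM in late_CC and 50.9 ± 3.97 CPM in late_MGC (n = 5 each), and its TMM-scaled difference, opposite in sign to that of the CPM means, was -0.12 ± 0.18 on the log2 scale with an adjusted p of 0.622. COPG2, which encodes a subunit of the coat of transport vesicles, starts 211 bases beyond MEST on the opposite strand. It was at 43.0 CPM in late_CC 3 and at 15.7 to 21.3 CPM in the other late_CC libraries, so the late_CC library high in MEST was high in COPG2 too. In late_MGC 3, where MEST was low at 65.7 CPM, COPG2 was at 19.7 CPM. That lay within the 18.3 to 26.7 CPM of COPG2 in the other late_MGC libraries. COPG2 was called in none of the 6 comparisons in edgeR, with adjusted p from 0.0911 to 0.955. It was lower in early_CC than in early_MGC when the 3 libraries were left out (-0.60, adjusted p 0.0324). NNAT lies within the span of BLCAP, on the opposite strand and with no exon bases shared. BLCAP, named for bladder cancer, rose 0.73 ± 0.21 on the log2 scale from early_CC to late_CC (adjusted p 0.00602), from 24.02 ± 3.15 to 40.0 ± 10.2 CPM, where NNAT fell. Counting ignored strand, so reads of both genes over the same stretch cannot be told apart. SLC22A3, a transporter gene downstream of IGF2R with 2 genes between them, held 3.11 ± 1.16 CPM in late_CC and 6.25 ± 1.96 CPM in early_CC (adjusted p 0.0539, and 0.0216 without the 3 libraries).

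**Figure D4:**
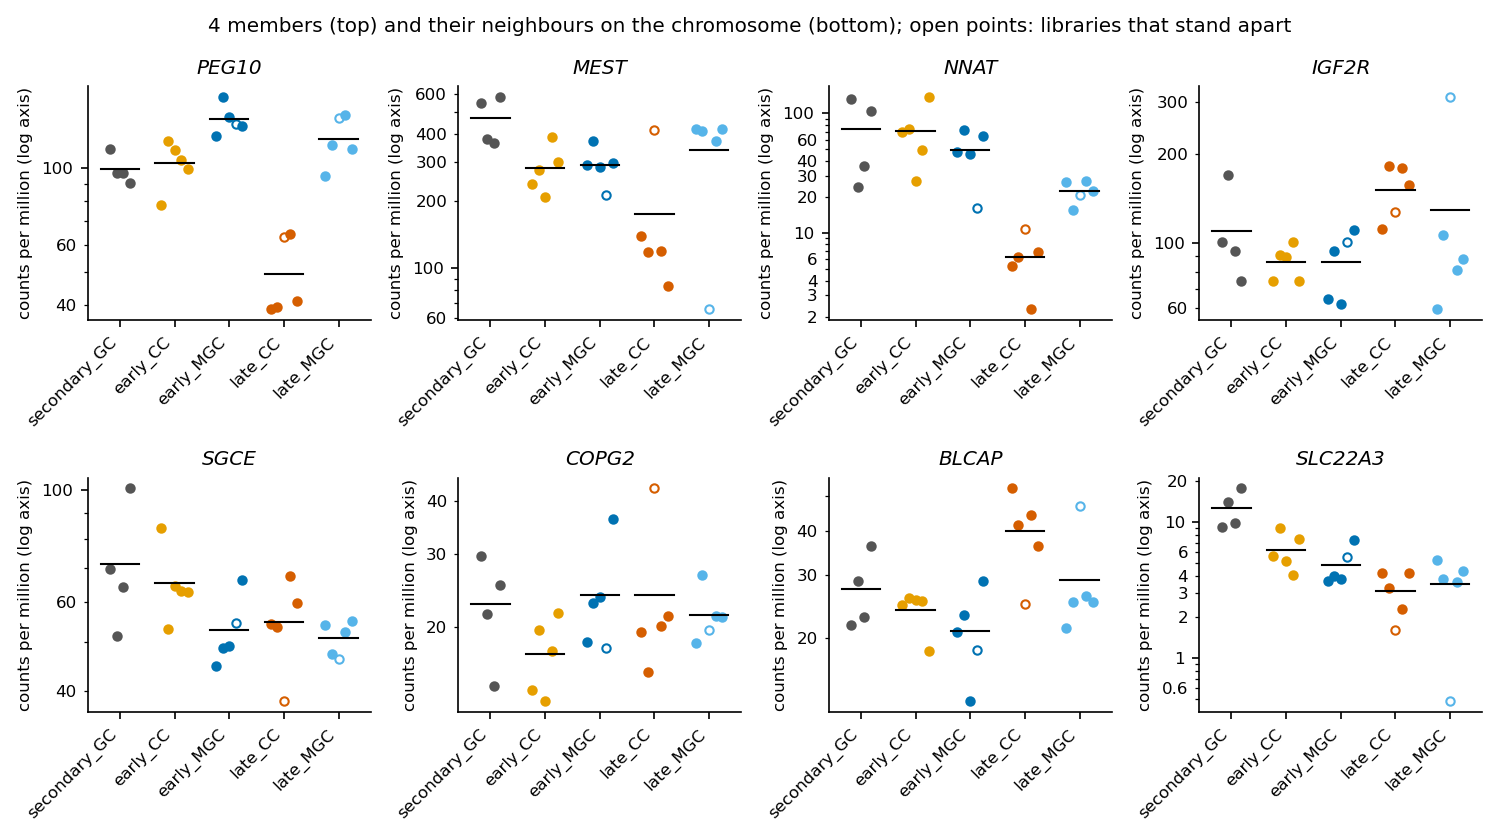
CPM (y axes, log scale) of PEG10, MEST, NNAT and IGF2R (top) and of their neighbours SGCE, COPG2, BLCAP and SLC22A3 (bottom) in the 24 libraries by group, with group means as lines. NNAT is lowest in late_CC, at 2.30 to 10.8 CPM, where BLCAP has its highest mean, 40.0 CPM.

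Beyond the 7 members, 53 other imprinted genes were listed from general knowledge; 38 were found by symbol and 28 tested. From early_CC to late_CC 5 of these rose and 6 fell, or 39.3% beside 45.2% of all genes, with a median log2 fold change of -0.011 beside 0.039. PON2, a lactonase gene, fell by 1.82 on the log2 scale (adjusted p 3.37e-06), from 165 ± 35.7 to 46.3 ± 13.3 CPM. SNRPN, which encodes a splicing protein, fell by 0.78 (adjusted p 0.00117), and AXL, a receptor tyrosine kinase, fell by 4.52 (adjusted p 0.00399). OSBPL5, a lipid transfer gene, rose by 1.21 (adjusted p 0.00217). Without the 3 libraries 15 were called, including all 11. In that fit 7089 of 14179 genes were called in all, against 6457 of 14298 with all libraries.

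From early_MGC to late_MGC 1 of the 28 rose and 4 fell (17.9% beside 19.1%). PHLDA2, which restrains placental growth, rose by 1.98 (adjusted p 0.0181), and OSBPL5 fell by 1.17 (adjusted p 0.0102). INPP5F, a phosphatase gene, fell by 0.92 (adjusted p 0.0269). The count was 8 without late_MGC 3, and 3 without early_MGC 5, late_MGC 1, late_MGC 4 or late_MGC 5. Over all genes 2725 of 14298 were called with all libraries and 3396 of 14103 without late_MGC 3. Without 1 of the other named libraries it was 2093 to 2350. GNAS fell by 1.41 (adjusted p 0.00648), but 50.2% of its exon bases are shared with another gene, where reads were not counted, so its value is uncertain.

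Between late_CC and late_MGC 4 of the 28 were higher and 4 lower in cumulus cells (28.6% beside 39.7%). OSBPL5 differed by 3.02 on the log2 scale (adjusted p 1.48e-07), from 3.89 ± 1.42 CPM in late_MGC to 36.0 ± 10.45 CPM in late_CC. AXL gave -6.06 (adjusted p 0.000631), with 172 CPM in late_MGC 3 and 2.23 to 4.17 CPM in the other late_MGC libraries; without the 3 libraries it gave -3.59 (adjusted p 3.24e-06). PHLDA2 was higher by 1.98 (adjusted p 0.00592) and HERC3, a ubiquitin ligase gene, by 1.68 (adjusted p 0.00743). The calls of IGF2 and CDKN1C, both lower in late_CC, also rested on late_MGC 3, which held 23.3 CPM of IGF2 and 112 CPM of CDKN1C; these 2 genes were picked out after their values were seen. In the other 4 late_MGC libraries IGF2 was at most 0.481 CPM and CDKN1C at most 0.544 CPM. Of the 8 genes called, 5 were also called without the 3 libraries, where 6 of the list were higher and 3 lower. In the early comparisons HM13 alone, a peptidase gene, was lower in early_MGC than in secondary_GC (-1.14, adjusted p 0.00689), or 3.57% of the list beside 9.1%. The count between early_CC and secondary_GC was 0 in edgeR, DESeq2 and limma-voom (7 at an unadjusted p under 0.05 in edgeR), and 4 were called between early_CC and early_MGC, or 14.3% beside 13.1%. These counts were 3, 3 and 7 without the 3 libraries. The calls over all genes rose in that fit too, to 1929, 1304 and 2484 of 14179 genes tested. With all libraries they were 1301, 285 and 1871 of 14298.

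The genes that keep or erase methylation marks formed another list, of 18 genes with 14 tested. From early_CC to late_CC 7 rose and 2 fell, or 64.3% beside 45.2% of all genes, with a median log2 fold change of 0.517 beside 0.039. TET1 and TET2, enzymes that oxidise methylated cytosine, rose by 2.61 (adjusted p 9.67e-07) and 1.96 (adjusted p 2.65e-06). SMCHD1, a chromatin protein that acts at some imprinted genes, rose by 1.11 (adjusted p 2.85e-06). UHRF1, which guides the maintenance methylase to newly copied DNA, fell by 2.02 (adjusted p 5.6e-06). Its level went from 37.6 ± 8.41 to 9.34 ± 3.40 CPM. All 9 calls held without the 3 libraries, where a total of 10 were called.

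In mural cells the same list gave 1 call from early to late, TET1, which fell by 1.05 (adjusted p 0.0166), from 19.4 ± 7.27 to 8.50 ± 1.65 CPM; without early_MGC 5 no gene of the list was called, and without late_MGC 3 there were 2. Late_CC against late_MGC gave 4 higher and 2 lower (42.9% beside 39.7%), led by UHRF1 at -2.14 (adjusted p 2.39e-06), TET1 at 2.01 (adjusted p 1.56e-05), TET2 at 1.49 (adjusted p 6.06e-05) and DNMT1, the maintenance methylase, at -0.80 (adjusted p 0.00706). Leaving out the 3 libraries gave 3 higher and 4 lower, with 5 of the 6 calls kept. The stage difference itself differed between cumulus and mural cells for 8 of the 14 genes (57.1% beside 31.4%), with 3.66 ± 0.44 on the log2 scale for TET1 (adjusted p 6.35e-06) and -2.48 for UHRF1 (adjusted p 5.62e-05). In early follicles TET1 was lower in early_CC than in early_MGC (-1.64, adjusted p 0.00138), as was SMCHD1 (-0.48, adjusted p 0.0296), and both were higher in early_MGC than in secondary_GC. ZFP57, which protects imprints, passed in 2 comparisons, but 45% of its exon bases are shared with another gene. None of these RNA levels measures methylation.

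**Figure D5:**
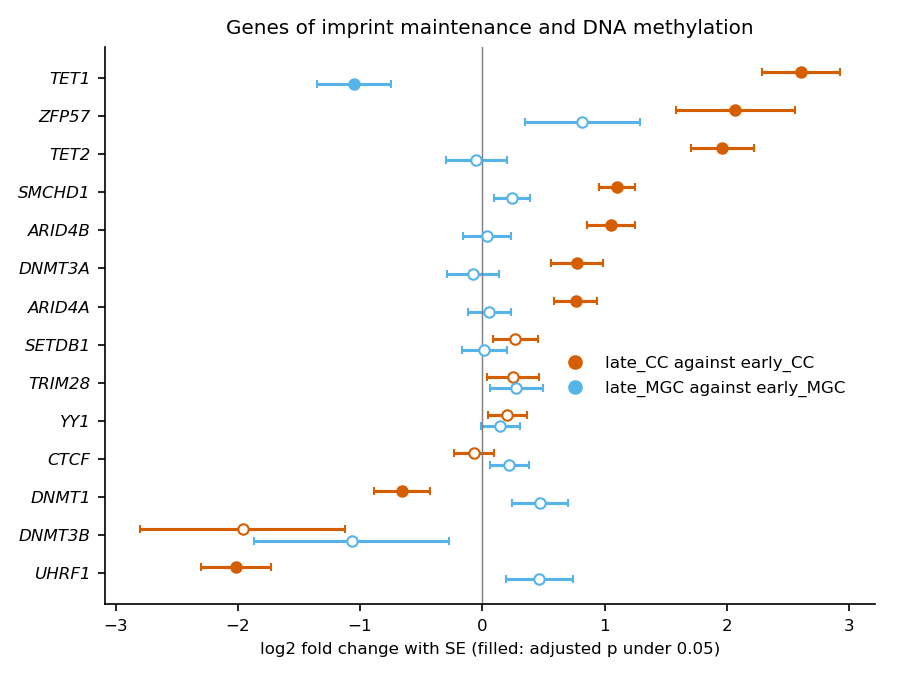
Log2 fold changes (x axis) with SE from the early to the late antral stage for 14 genes of imprint maintenance and DNA methylation, in cumulus and in mural cells; filled points passed at adjusted p under 0.05. TET1 lies at 2.61 in cumulus and at -1.05 in mural cells, and UHRF1 at -2.02 in cumulus cells.

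The insulin and IGF genes around GRB10 formed a list of 20, of which 16 were tested. From early_CC to late_CC 6 rose and 3 fell (56.2% beside 45.2%). Of these 9 calls, 8 held without the 3 libraries. IGF1R, the receptor that GRB10 can bind, rose by 1.95 (adjusted p 2.51e-05), from 9.42 ± 2.26 to 36.3 ± 13.9 CPM. GRB7, an adaptor of the same family, fell from 12.4 ± 3.25 to 0.0519 ± 0.0713 CPM (adjusted p 1.13e-09), with 4 counts in all over the 5 late_CC libraries. PIK3CA, a lipid kinase subunit, rose by 1.53 (adjusted p 0.00127), and PAPPA, a protease that frees IGF from its binding proteins, fell by 2.72 (adjusted p 0.00486). GRB14, the third adaptor of the family, was the abundant one, at 95.7 ± 27.9 CPM in secondary_GC and 582 ± 70.9 CPM in late_CC. In mural cells 3 of 16 were called between the stages (18.8% beside 19.1%): GRB7, at -3.14 on the log2 scale (adjusted p 1.35e-05), IGF1R higher by 1.64 (adjusted p 0.000674) and PIK3R1, a regulatory subunit of the same kinase, higher by 0.66 (adjusted p 0.0294). The count was 6 without late_MGC 3, where 3396 of 14103 genes were called in all. The count of this list was 5 without the 3 libraries, where PIK3R1 missed the threshold (adjusted p 0.0548). In that fit 3378 of 14179 genes were called.

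The 24 genes of the mannose 6-phosphate and lysosomal route served by IGF2R had 23 tested. From early_CC to late_CC 8 rose and 2 fell (43.5% beside 45.2%), where IGF2R itself rose. SORT1, another sorting receptor, rose by 1.33 (adjusted p 8.88e-05) and AP1G1, a coat adaptor, by 0.88 (adjusted p 0.00035). AP1M1, another subunit of that adaptor, fell by 0.91 (adjusted p 8.08e-05). In mural cells 5 rose and 1 fell (26.1% beside 19.1%), among them GUSB, a lysosomal glucuronidase, by 1.43 (adjusted p 1.96e-05) and LAMP1, a lysosomal membrane protein, by 0.98 (adjusted p 0.0037), while the protease gene CTSD fell by 1.55 (adjusted p 0.000457). M6PR, the smaller receptor for the same tag, rose by 0.88 (adjusted p 0.00113), with 27.7% of its exon bases shared with another gene. Without the 3 libraries 6 were again called in mural cells, but only 4 of the first 6 were among them. In cumulus cells 12 were then called, including all 10.

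The shorter lists covered known partners. Of 9 tested genes of cell death linked to PEG3, CTNNB1 rose in late_CC against early_CC (0.93, adjusted p 8.04e-05) and in late_MGC against early_MGC (0.73, adjusted p 0.00301). In cumulus cells it was the single call of the list, 11.1% beside 45.2% of all genes. In mural cells 2 of the list were called, both higher (22.2% beside 19.1%). Of 8 tested calcium genes around NNAT, ITPR3, a calcium release channel, was lower in the late stage in both cell types (adjusted p 2.96e-06 in cumulus and 5.47e-06 in mural cells). It went from 3.71 ± 3.37 CPM in early_CC to 2 counts over late_CC, and from 5.22 ± 2.50 CPM in early_MGC to 4 counts over late_MGC. ATP2A2, the calcium pump of the endoplasmic reticulum, rose by 0.56 (adjusted p 0.00558) and 0.91 (adjusted p 0.000263). In all, 4 of these 8 were called in cumulus cells (50% beside 45.2% of all genes) and 3 in mural cells (37.5% beside 19.1%), of which 2 remained without the 3 libraries. Of 4 tested genes of the PLAG family and its targets, VIPR2, a peptide hormone receptor, fell in late_CC against early_CC (from 410 to 7 counts over the groups, adjusted p 0.000377) and CDKN1A, a cell cycle inhibitor, in late_MGC against early_MGC (-1.82, adjusted p 0.0398). Each was the single call of that list, 25% beside 45.2% of all genes in cumulus cells and beside 19.1% in mural cells.

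Markers of other cell types moved with some of these results. The theca and stroma list summed to 544 to 705 CPM in late_CC without library 3, against 200 to 785 CPM in early_CC, with CYP17A1 at 0 in both. Its genes did not move as one: of 9 tested, 3 were called higher and 1 lower in late_CC (44.4% beside 45.2% of all genes). DCN was at 0.197 to 1.55 CPM in late_CC and 12.5 to 146 CPM in early_CC. PDGFRA was at 14.3 to 79.5 CPM in late_CC and 1.37 to 2.65 CPM in early_CC. In early_MGC 5, the library highest in PEG3, the theca and stroma list summed to 319 CPM. The other early_MGC libraries had sums of 119 to 253 CPM. DCN was at 130 CPM in early_MGC 5 and at 10.6 to 58.9 CPM in the others of that group. LUM was at 16.6 CPM there, within the 11.8 to 73.5 CPM of the others. The blood list summed to 110 to 199 CPM in late_CC without library 3 and to 5.05 CPM in that library, against 1.90 to 3.94 CPM in early_CC. Most of it came from the globin genes HBZ (56.2 to 142 CPM) and HBA (30.8 to 71.9 CPM) in the late_CC libraries other than library 3, while PTPRC, the common white cell marker, and HBB were at 0 in all 5 late_CC libraries. The oocyte list summed to 59.8 to 80.1 CPM in late_CC without library 3 and to 11.9 CPM in that library, against 9.11 to 20.9 CPM in early_CC. In mural cells it summed to 21.9 to 54.5 CPM in late_MGC and 2.75 to 8.04 CPM in early_MGC. KIT, a receptor kinase, made up most of it, with means of 58.9 CPM in late_CC and 36.4 CPM in late_MGC, while BMP15 and FIGLA were at 0. Endothelial markers summed to 3.38 to 5.36 CPM in late_CC. In late_MGC they summed to 25.6 CPM in library 3 and to 0.765 to 2.78 CPM in the other libraries. The part of all these markers in the member results was not tested. PEG10 and NNAT were called lower in late_CC, and PEG3 lower in late_CC than in early_CC, both with all libraries and without the 3. Leaving these out does not check the part of the markers. The late_CC libraries that remain have higher theca, blood and oocyte sums than late_CC 3.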

How the data were processed

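The deposited counts are whole numbers of reads per gene that the authors made with featureCounts 2.0.0 over the exons of Ensembl genes on ARS-UCD1.2, without strand, per the file headers; HISAT2 2.1.0, SAMtools 1.10 and fastp 0.20.0 are also named, per the submitters' processing notes. A column of 41567882 unassigned reads (8.3% of counts) belongs to no sample and was not used. The members and gene lists were chosen with earlier results of these data known. Symbols came from RefSeq spans on another assembly of the cow genome, kept where 2 spans were each other's best match (17327 genes named). The spans had to overlap by at least 0.5 of their union, or by at least 0.2 with a boundary shared within 5 bases. BLCAP was named at an overlap of 0.465.

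CPM are counts per library total. Tests used edgeR 4.0.16 (TMM scaling, filterByExpr, robust quasi-likelihood, all 24 libraries in 1 fit, R 4.3.3), with Benjamini-Hochberg adjustment over 14298 genes and a threshold of 0.05, after a check on simulated data. The SE is the log2 fold change divided by the root of F. Alternatives were RLE scaling, DESeq2 1.42.0, limma-voom 3.58.1, no filter, only the groups compared, leaving out each library, the replicate number as a block, and, chosen after seeing the data, leaving out 3 libraries. Named genes outside the members were the called ones with the 4 lowest adjusted p per list and comparison, less those picked out in the text; some genes of the lists are not reported here. Libraries of late_MGC and secondary_GC are numbered in column order. Reads carry no molecular identifiers, so limits from counts cover counting error only.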

Additional observations from a re-analysis of the deposited data

Results flagged for a closer look

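Among 35 groups of member values, 8 held a library far from the others of its group by Dixon's criterion; chance alone flags about 1 group in 20. PEG3 in early_MGC 5 was at 297 CPM, while the other 4 libraries held 94.5 to 151 CPM. MEST in late_CC 3 was at 417 CPM against 83.1 to 140 CPM, and MEST in late_MGC 3 was at 65.7 CPM against 371 to 418 CPM. IGF2R in late_MGC 3 was at 313 CPM against 59.5 to 107 CPM. GRB10 was flagged in 3 groups: late_MGC 3 at 6.11 CPM, early_MGC 4 at 0.716 CPM and late_CC 3 at 0.138 CPM, the last 2 on few counts. PLAGL1 in early_CC 3 was at 6.20 CPM against 3.46 to 4.22 CPM. Of these 8 flags, 6 fell in the 3 libraries that also correlated least with their groups.

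The change from the early to the late antral stage differed between cumulus and mural cells for PEG10, by -0.95 on the log2 scale (adjusted p 0.00332), and for NNAT, by -2.47 (adjusted p 0.00574). Both were called under every alternative run for the interaction, with adjusted p over them of at most 0.0121 for PEG10 and 0.0141 for NNAT.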

How the results depend on the processing

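Under RLE scaling and DESeq2 no member followed singly changed its direction or its side of the threshold, and no count of called members moved by over 1.5 times. DESeq2 called 4 of the 6 members in late_CC against early_CC, where edgeR called 3. The added call was GRB10, which was not followed singly there. It had 2 counts over late_CC and an adjusted p of 0.0914 in edgeR's quasi-likelihood test. In early_MGC against secondary_GC DESeq2 called 2 imprinted and 4 methylation genes in place of 1 and 2. Over all genes, early_CC against secondary_GC gave 722 calls by DESeq2 in place of 285, and early_MGC against secondary_GC 516 without secondary_GC 4 in place of 1301. The falls of PEG3, PEG10 and NNAT from early_CC to late_CC were called under all 17 alternatives, with adjusted p of at most 6.05e-05, 0.000264 and 0.000122. RLE moved the median of all genes by -0.0635 to 0.0546 on the log2 scale. The order of members by level per length was the same by TPM, and of the 5 genes most like PEG3, 3 remained without the 3 libraries.

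Counts of the 6 members called were 0 without the filter, in place of 1, for early_MGC against secondary_GC and for early_CC against early_MGC. In that setting 873 and 1474 of 21017 genes were called in all. With only the groups compared the member counts were 1 in place of 0 for early_CC against secondary_GC and late_MGC against early_MGC, and 3 in place of 5 for late_CC against late_MGC. The calls over all genes were then 964 of 13398, 1612 of 12379 and 4659 of 12396. Without the 3 libraries the member counts were 1 in place of 0 for early_CC against secondary_GC and for late_MGC against early_MGC. Over all genes that fit called 1304 and 3378 of 14179. Leaving out 1 library gave 0 to 1 for early_MGC against secondary_GC and for early_CC against early_MGC, and 2 to 4 for the interaction. The calls over all genes there ran from 516 to 1524, from 1222 to 1761 and from 3826 to 5138. For GRB10, limma-voom gave an adjusted p of 0.443 between the late groups.

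Differences near 0 changed sign. PEG3 gave 0.0486 (limma-voom) and -0.20 to 0.32 (leaving out 1 library) for early_CC against secondary_GC. It gave 0.10 (limma-voom), 0.235 (without the 3 libraries) and -0.17 to 0.17 (leaving out 1) for late_CC against late_MGC. NNAT gave 0.0828 (limma-voom), 0.0135 (no filter) and -0.35 to 0.39 (leaving out 1) for early_CC against secondary_GC. IGF2R gave 0.0219 (without the 3 libraries) and -0.21 to 0.0223 (leaving out 1) for early_CC against early_MGC, -0.35 to 0.10 for early_MGC against secondary_GC and -0.0883 to 0.62 for late_CC against late_MGC. PLAGL1 gave -0.31 to 0.0255 for early_CC against early_MGC. The cause of these moves was not tested.

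For the lists, imprinted genes in late_MGC against early_MGC numbered 3 by limma-voom and with only the groups compared, and 3 to 8 leaving out 1 library, in place of 5. Methylation genes there numbered 2 without the 3 libraries and 0 to 2 leaving out 1. Insulin genes there numbered 5 without the 3 libraries and 2 to 6 leaving out 1. In late_CC against late_MGC insulin genes numbered 0 with only the groups compared and 3 to 5 leaving out 1. Lysosomal genes in late_CC against early_CC numbered 6 without the filter, where 6100 of 21017 genes were called in all. Calls over all genes moved in the other settings too. For late_MGC against early_MGC they were 2518 by limma-voom and 1612 of 12379 with only the groups compared. Leaving out 1 library gave 2093 to 3396, in place of 2725. Without the 3 libraries they were 3378 for late_MGC against early_MGC, 7089 for late_CC against early_CC and 5963 for late_CC against late_MGC.

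The replicate numbers of early_CC, early_MGC and late_CC were not taken as pairs, since deviations of same-numbered libraries correlated at -0.131 to 0.209 and not every library matched its own number best; number 1 did so in all 3 pairs of groups (r 0.174 to 0.209). With the replicate number as a block over these 3 groups, late_CC against early_CC gave 6912 calls (6922 without the block) and early_CC against early_MGC 2656 (2591), and no member changed its call. Depth limits GRB10, at 217 counts in all libraries, most.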

Other observations

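Some imprinted genes known from fetal growth were nearly silent here. DLK1, a Notch-like membrane protein of growing tissue, had 0 counts in all 24 libraries, where 3 counts over a group would give 0.0244 to 0.0402 CPM. IGF2, the growth factor that IGF2R clears, was at 0 in all 5 early_CC libraries and at most 2.20 CPM in any library but late_MGC 3, which held 23.3 CPM. H19, the noncoding RNA beside IGF2, held 62.0 CPM in that library and at most 2.08 CPM in the others. The late_MGC means, 4.76 ± 10.4 CPM for IGF2 and 12.45 ± 27.7 CPM for H19, thus rest on 1 library of 5.

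CDKN1C, an imprinted inhibitor of the cell cycle, had 0.0696 to 0.544 CPM in the late_MGC libraries other than library 3, and 1.80 to 15.5 CPM in early_MGC. Without the 3 libraries it fell by 4.65 on the log2 scale between these stages (adjusted p 0.00089 in edgeR's quasi-likelihood test), and with all 24 it gave 1.67 (adjusted p 0.42). The direction thus turned when the 3 libraries were left out. AXL likewise gave -3.11 (adjusted p 2.09e-06) without the 3 libraries and 0.27 (adjusted p 0.869) with them. These genes were picked out after their values were seen.

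SNRPN and NDN, imprinted genes of the Prader-Willi region in people, were well expressed. SNRPN held 295 ± 34.2 CPM in early_CC and 171 ± 18.6 CPM in late_CC. NDN, which encodes a growth suppressor, held 34.3 ± 9.14 CPM in early_MGC and 26.2 ± 2.61 CPM in late_MGC. In cumulus cells NDN was at 33.5 to 40.9 CPM in early_CC. It was at 45.7 to 50.9 CPM in late_CC, except for 19.9 CPM in late_CC 3. The spread of PEG3 differed between groups, with a coefficient of variation of 9.90% over the 5 early_CC libraries and 58.7% over the 5 early_MGC libraries; that difference was not tested.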
